A study of Meleagris gallopavo with 18 samples.

Results

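The loci described here are 150 of 56037 turkey genes, picked from the 6122 that could be scored. In them the share of 1 transcript, summed over birds, differed most between the testis and the 2 ducts, the epididymis and the ductus deferens. A locus was scored where its counts reached at least 6000 in each tissue, summed over 6 birds, and where it had at least 1 assembled transcript. For each of its assembled transcripts the share of the locus counts was computed per tissue. The score is the smaller of the differences from testis to epididymis and from testis to ductus deferens, both in the same direction, for the transcript where it is largest. This transcript is called the lead transcript, and its share the lead share. Of the 6762 loci with enough counts 6122 had an assembled transcript, and the 150 with the highest scores were taken. The loci were thus chosen by their summed transcript shares in testis and ducts, and these differences are given as a description without a test.

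Testis, epididymis and ductus deferens were sampled from the same 6 male turkeys (Meleagris gallopavo, birds 2, 11, 12, 14, 15 and 16) at 38 weeks of age. All birds had been photostimulated at 26 weeks with 14 h of light and 10 h of darkness, and no group was untreated. Each tissue of each bird gave 1 polyA RNA library, 18 libraries in all. The samples are whole tissues, so fewer cells of a type and less RNA per cell cannot be told apart.

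One locus can give several transcripts, through other start sites, other exons or other ends of the RNA. These transcripts can encode different proteins or differ only in untranslated sequence, so that a tissue can change the product of a gene without changing the amount of its RNA. The testis is known for an unusually large repertoire of such transcripts, many of them made by germ cells during meiosis and spermiogenesis, whereas the ducts are built of epithelium, connective tissue and smooth muscle.

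The total numbers of counts were 81438457 to 100159106 in testis, 64456026 to 118625345 in epididymis and 64143451 to 100241426 in ductus deferens. The epididymis of bird 12 stood apart. A single gene outside the 150 loci, MSTRG.50983, took 30.9% of its counts, the library had counts at 17596 genes, and its median count over the 150 loci was 1090.5, against 3519.5 to 5529 in the other epididymides. In addition, 20 of the 150 loci had under 100 counts in it, so that their shares there are uncertain. Of these, 5 had no counts in it, and their epididymal shares rest on 5 birds. HORMAD1, a meiotic chromosome protein used as germ cell marker, had 239 to 631 CPM (TMM-normalized counts, scaled to a common depth) in testis, 5.58 to 15.1 CPM in epididymis and 2.72 to 6.14 CPM in ductus deferens. KRT19, a keratin of duct epithelium, had 11.0 to 26.5 CPM in testis, 8.49 to 50.9 CPM in epididymis and 89.96 to 1039 CPM in ductus deferens. CCNO, a gene of multiciliated cells, had 0.0495 to 1.27 CPM in testis, 25.4 to 72.0 CPM in epididymis and 3.15 to 7.42 CPM in ductus deferens. Smooth muscle, connective tissue, leukocyte, Sertoli and Leydig cell markers could not be checked, because none of their symbols could be tied to a locus.

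The scores of the 150 loci ran from 57.5 to 98.2 percentage points with a median of 65.7, against a median of 8.31 points over all 6122 scored loci. In 5 loci the score was over 90 points, in 19 over 80 and in 55 over 70. The list has no natural edge, since the last 3 loci inside it, MSTRG.39636, MSTRG.15472 and MSTRG.43339, scored 57.6, 57.5 and 57.5 points. The first 3 outside, MSTRG.42127, MSTRG.46224 and MSTRG.41894, scored 57.1, 57.0 and 57.0 points.

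The change went both ways. In 68 loci the lead transcript had the higher share in testis, with a median share of 75.9% in testis, 3.60% in epididymis and 0.222% in ductus deferens. In the other 82 loci it had the lower share in testis, with medians of 12.9% in testis, 86.9% in epididymis and 90.4% in ductus deferens. The direction is arbitrary in 1 locus, where another assembled transcript moved equally far the opposite way. Only assembled transcripts could lead. In the 8 loci with a single one, the Ensembl counts together moved equally far the opposite way. The direction there follows from this limit.

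**Figure D1:**
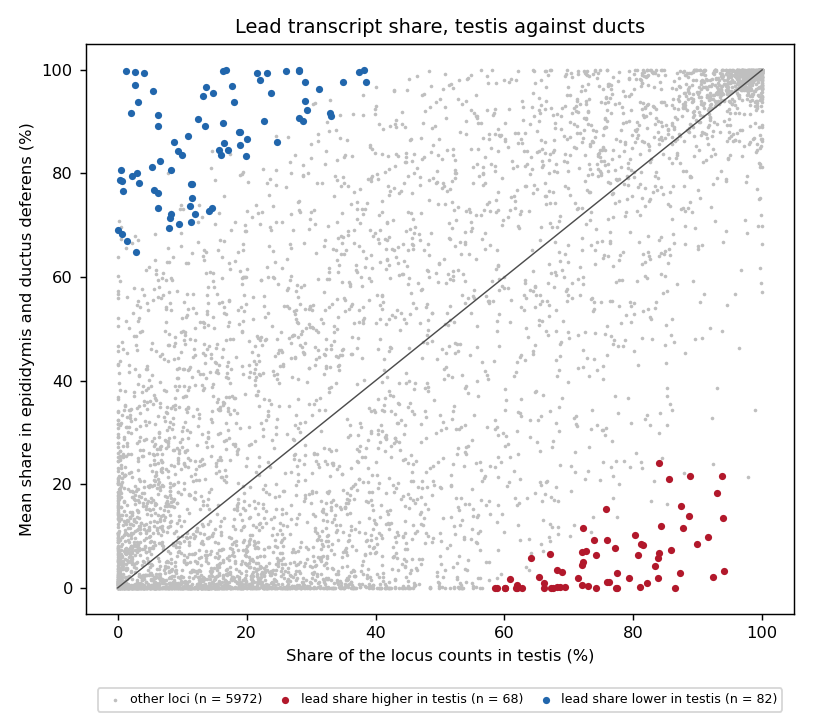
Lead share in testis (x axis, % of locus counts summed over 6 birds) against the mean of its shares in epididymis and ductus deferens (y axis, %), 1 point per scored locus. The 68 loci with the lead higher in testis lie at the lower right and the 82 with the lead lower in testis at the upper left, which is how they were chosen, and the line marks equal shares.

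A switch was a full exchange in some loci and one-sided in others. In 33 of the 68 loci the testis lead had under 5% of the counts in both ducts. In 8 of these 68 it had no counts at all in the 12 duct libraries, which allows a share of at most 0.0473% in a duct, by counting error only. Conversely, in 17 of the 82 loci the duct lead had under 5% of the testis counts, and in 19 it had over 95% in both ducts. No testis lead reached 95% of the testis counts summed over the birds. In loci with a duct lead a median of 3 transcripts held at least 5% of the counts in testis and 2 in each duct. In loci with a testis lead the medians were 2 in testis, 3 in epididymis and 2 in ductus deferens.

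In 123 of the 150 loci the most counted assembled transcript differed between testis and both ducts (19.5% of all scored loci, and 17.9% of the 5972 others). In 24 of the others the same transcript led the assembled ones in all tissues although its share moved, and in 3 the testis shared it with 1 duct. Ensembl transcripts are left out here. The 8 loci with a single assembled transcript could only keep their leader. Counting the annotated Ensembl transcripts of a locus together as 1 more transcript raised the number to 143 (20% of all scored loci). The score itself favours such loci, so nothing is read from this excess.

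The partner of a lead is the transcript of the locus that moved farthest the opposite way. It moved by more than 25 points in 61 of the 68 loci with a testis lead and in 74 of the 82 with a duct lead, with medians of 47.4 and 48.3 points. The partner was an Ensembl transcript in 15 and 17 of these loci and an assembled transcript in the others. On the scale of CPM, the lead was more abundant in testis than in both ducts in 63 of the 68 loci, and the rest of the locus was less abundant in 62. In the 82 loci with a duct lead the lead was less abundant in testis in 80 and the rest more abundant in 77. These amounts are the shares multiplied by the total of the locus, and the choice by shares largely fixes these counts, so nothing is read from them.

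The 150 loci had a median of 4 assembled transcripts, against 2 in the other scored loci, and 5.33% of them had a single one, against 32.1%. A locus with more transcripts has more chances of a high score, and the part of this in the difference was not tested. Depth differed little, with median summed counts of 88889.5 and 80193. The share of counts on Ensembl transcripts had medians of 4.01% and 2.95%. Loci with most counts on Ensembl transcripts were 9.33% of the 150 loci and 16.1% of the others, and loci without such counts 16% and 22.7%. Only assembled transcripts could lead, and the part of this in the difference was not tested.

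Among the 12 loci with the highest scores, 9 had a transcript that filled the ducts and was rare in testis. In MSTRG.8494 the transcript MSTRG.8494.2 had 0% to 2.42% of the locus counts in testis (median 1.31%), 97.9% to 100% in epididymis (median 99.9%) and 100% in every ductus deferens. In testis the locus was led by MSTRG.8494.1 instead, with 73.8% of the summed counts, and this transcript had no counts in any of the 12 duct libraries, which allows shares of up to 0.0404% in epididymis and 0.0421% in ductus deferens. Testes and ducts did not overlap for either transcript, and the score of this locus was the highest of the list.

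MSTRG.19307.2 had 0% to 5.40% of its locus in testis (median 2.22%), 98.9% to 100% in epididymis (median 99.7%) and 99.0% to 100% in ductus deferens (median 100%). The testes used MSTRG.19307.3 and MSTRG.19307.4, with 68.4% and 28.3% of the summed counts. MSTRG.37193.1 had 0.537% to 14.7% in testis (median 4.20%), 94.2% to 100% in epididymis (median 99.8%) and 97.1% to 100% in ductus deferens (median 99.7%), and MSTRG.37193.2 held 77.6% of the testis counts. In both loci every testis lay below every duct sample.

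MSTRG.18496.1 had 1.67% to 5.48% in testis (median 2.72%), 92.4% to 100% in epididymis (median 99.0%) and 91.1% to 100% in ductus deferens (median 99.9%), while MSTRG.18496.2 held 90.7% of the testis counts. MSTRG.46803.2 had 1.58% to 5.36% in testis (median 3.38%), 15.4% to 98.5% in epididymis (median 96.0%) and 78.9% to 99.7% in ductus deferens (median 99.1%). The low epididymal value of this locus belonged to bird 12 alone, where it rests on 311 counts, against 7066 to 12513 in the other epididymides. MSTRG.33886.6 had 0.0415% to 15.7% in testis (median 0.0864%), 82.5% to 100% in epididymis (median 100%) and 71.0% to 100% in ductus deferens (median 100%). Of the summed testis counts MSTRG.33886.1 and MSTRG.33886.3 held 42.1% each, but no testis was split evenly. MSTRG.33886.1 led in birds 2, 15 and 16, with 90.7%, 89.2% and 61.2%, and MSTRG.33886.3 in birds 11, 12 and 14, with 69.8%, 88.1% and 69.0%.

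MSTRG.52304.5 had 0% to 2.81% in testis (median 1.82%), 77.2% to 95.04% in epididymis (median 84.0%) and 91.5% to 97.6% in ductus deferens (median 95.8%). Its partner MSTRG.52304.1 held 94.1% of the testis counts, 12.4% of the epididymis counts and 4.31% of the ductus deferens counts. MSTRG.11727.1 and MSTRG.42927.1 were the only lead transcripts among these 9 that kept over 10% of the summed testis counts. MSTRG.11727.1 had 14.6% to 19.1% in testis, 99.6% to 100% in epididymis and 99.8% to 99.9% in ductus deferens, and its testis partner was the annotated transcript ENSMGAT00000004186 with 76.6%. MSTRG.42927.1 had 8.72% to 23.6% in testis, 99.8% to 100% in epididymis and 99.9% to 100% in ductus deferens.

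The remaining 3 of the 12 had a testis lead. MSTRG.12983.2 had 80.6% to 98.1% of its locus in testis (median 91.5%), 0.0341% to 5.35% in epididymis (median 2.00%) and 0% to 2.59% in ductus deferens (median 1.62%). It was the only assembled transcript of its locus, and the ducts used the annotated transcript ENSMGAT00000003392, with 97.3% in epididymis and 97.9% in ductus deferens. MSTRG.22320.1 had 91.8% to 96.3% in testis (median 93.3%), 0.714% to 8.23% in epididymis (median 5.98%) and 0.0216% to 0.670% in ductus deferens (median 0.214%), with MSTRG.22320.3 taking 87.9% and 90.6% of the counts in epididymis and ductus deferens. MSTRG.19686.3 had 56.8% to 99.2% in testis (median 94.7%) and no counts in any duct library, which allows shares of up to 0.0137% in epididymis and 0.016% in ductus deferens. The testis of bird 14 was the low one, and the other testes lay at 94.3% or above.

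**Figure D2:**
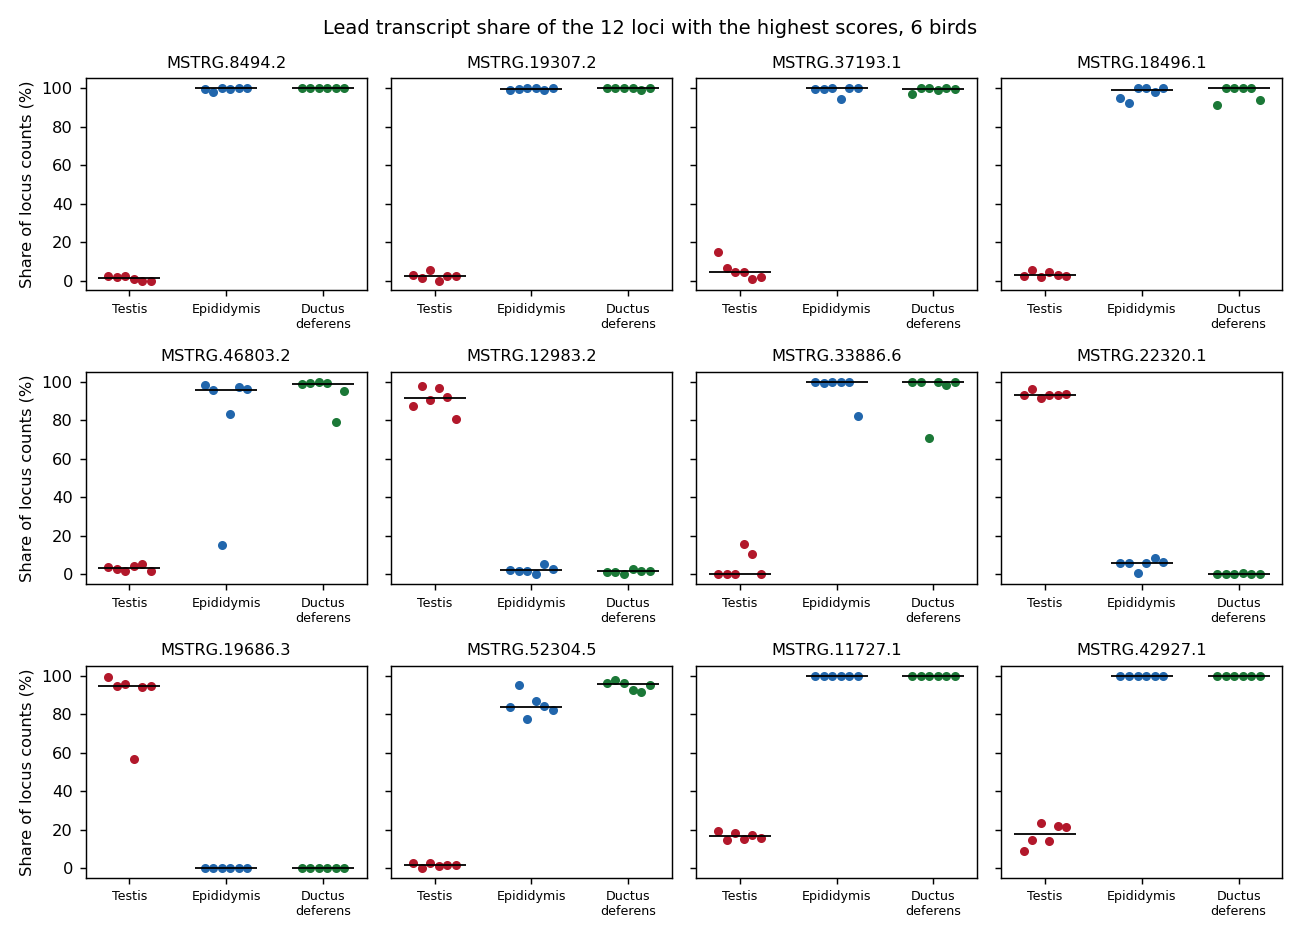
Lead share (y axis, % of the locus counts) in each bird for the 12 loci with the highest scores, with testis, epididymis and ductus deferens from left to right, 1 point per library and the median as a line. The testes lie apart from all ducts in each panel, and single libraries such as the epididymis of bird 12 at MSTRG.46803.2 (15.4%) leave the level of their tissue.

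Among the loci with a known symbol was ASS1 (MSTRG.19198). It encodes argininosuccinate synthase, the enzyme that makes the precursor of arginine. Its lead transcript MSTRG.19198.4 had 94.3%, 64.7%, 57.9%, 66.9%, 76.7% and 71.8% of the locus counts in the testes of birds 2, 11, 12, 14, 15 and 16. In the ducts it was found in the epididymis of bird 15 only, with 2.43%, and a count of 0 in ductus deferens allows up to 0.0458%. The ducts used the annotated transcript ENSMGAT00000019709, with 60.1% in epididymis and 62.5% in ductus deferens, and MSTRG.19198.1, with 36.2% and 36.8%. The birds differed in this. MSTRG.19198.1 had no counts in the epididymis of bird 11 and in the ductus deferens of birds 12 and 16, 9.53% in the epididymis of bird 12, and 37.0% to 46.2% in the other epididymides and 27.1% to 48.6% in the other ductus deferens samples. The testes, in contrast, had 4.44% and 4.59% on these transcripts.

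**Figure D3:**
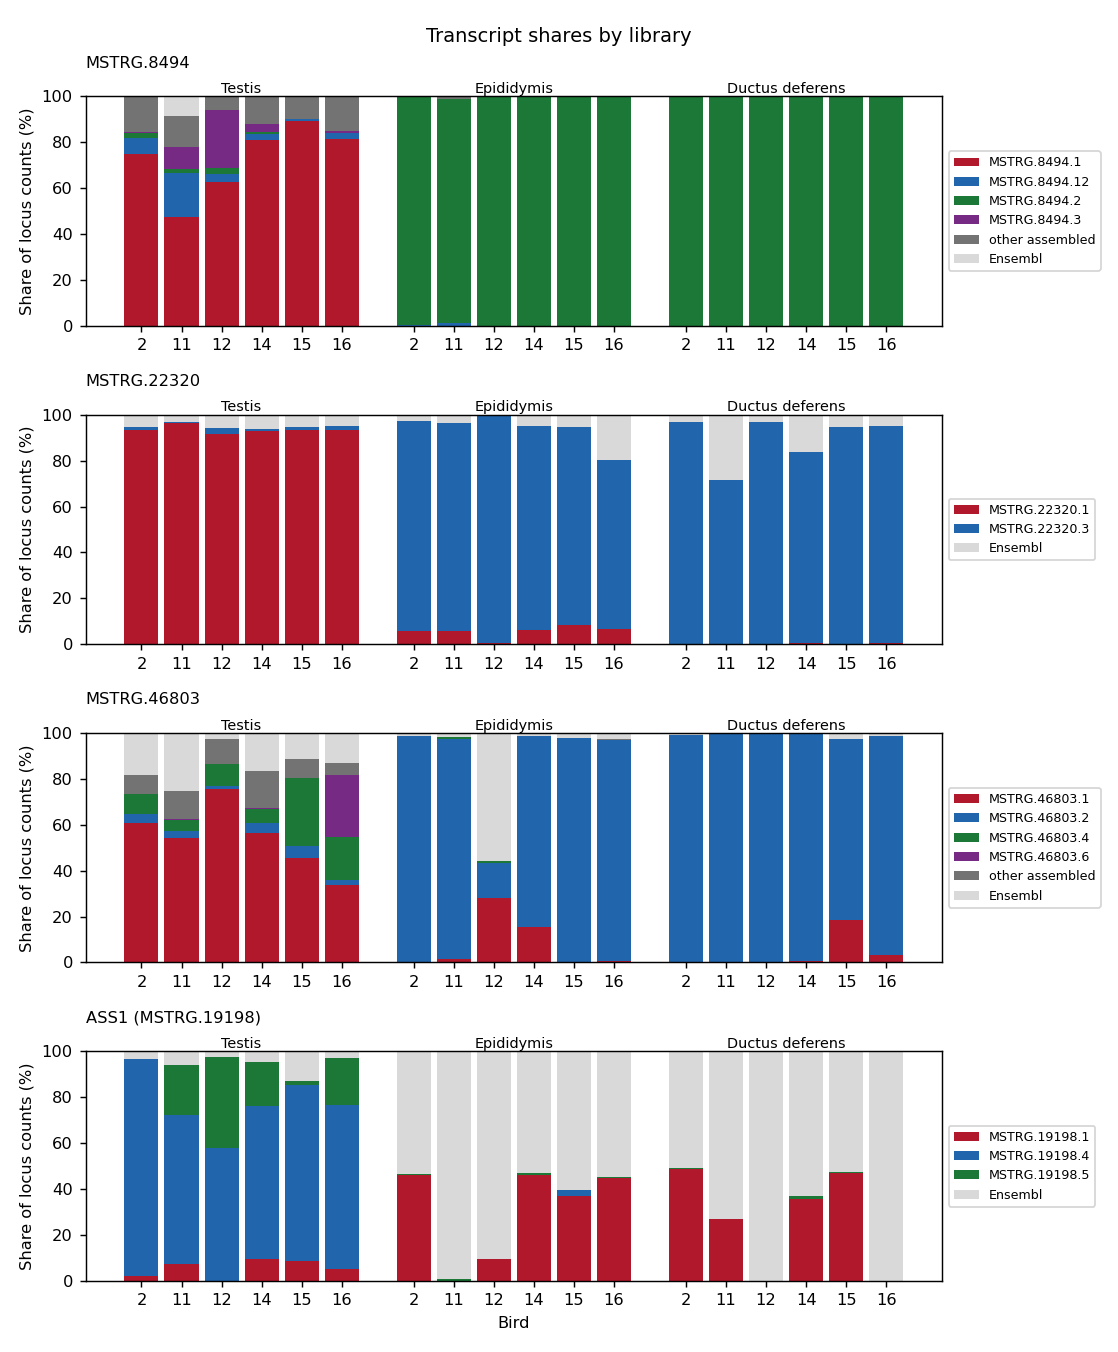
Share of the locus counts (y axis, %) of each transcript in every library (x axis, bird number, with testis, epididymis and ductus deferens from left to right) for MSTRG.8494, MSTRG.22320, MSTRG.46803 and ASS1. Colours mark assembled transcripts, dark grey the other assembled and light grey the Ensembl transcripts. At MSTRG.46803 the epididymis of bird 12 (15.4% on the lead, of 311 locus counts) differs from the other epididymides.

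Single birds that left their tissue were common. In 70 of the 150 loci no lead share of a testis reached into the range of the 12 ducts (33 loci with a testis lead and 37 with a duct lead), against 7.5% of all scored loci, and this contrast chose the loci. In the other 80 at least 1 bird crossed. Without the epididymis of bird 12 the number without overlap was 81. Leaving out a library can only keep or raise this number, and the share of all scored loci is not given for this setting. Nothing is read from the rise. In 63 loci at least 1 testis lay on the other side of 50% from the side on which the loci were chosen, in 63 at least 1 epididymis and in 43 at least 1 ductus deferens. For 26, 13 and 14 loci this held for at least 2 birds.

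Within a tissue the lead share of the 150 loci spread over a median of 36.3 points between the lowest and the highest testis, 27.5 points in epididymis and 8.62 points in ductus deferens. The other scored loci had medians of 21.7, 15.3 and 10.2 points. The spread exceeded 50 points in 56 loci in testis, 62 in epididymis and 41 in ductus deferens. These are 37.3%, 41.3% and 27.3% of the 150 loci, against 27.8%, 30.5% and 22.5% of the other scored loci. Without bird 12 the median spread of the 150 loci in epididymis was 16.1 points over 5 birds, and 46 loci exceeded 50 points. A range over fewer birds can only be equal or smaller. The other scored loci were not recomputed in this way, so 16.1 points cannot be set beside their 15.3 points. The epididymis of bird 12 gave the lowest or highest share of its tissue in 44.0% of the 150 loci, and in 47.2% of all scored loci.

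**Figure D4:**
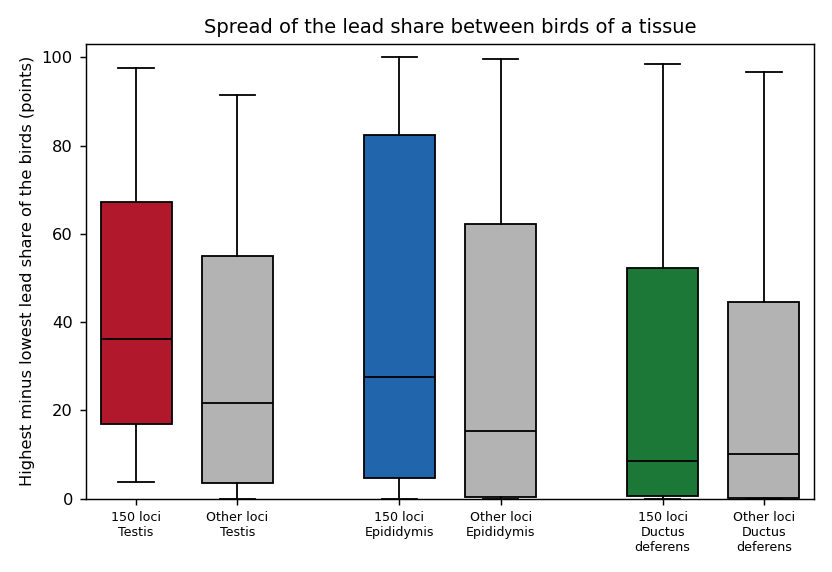
Highest minus lowest lead share of the birds of a tissue (y axis, percentage points) for the 150 loci (coloured) and the other scored loci (grey) in testis, epididymis and ductus deferens. Boxes give the median and quartiles and whiskers the 5th and 95th percentiles. The medians of the 150 loci are 36.3, 27.5 and 8.62 points.

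The rule asks that both ducts lie far from the testis on the same side, which also limits the gap between them, and the gap is given as a description. The lead shares of epididymis and ductus deferens differed by a median of 3.17 points, against 1.78 points in the other scored loci. The gap was under 5 points in 87 of the 150 loci and over 20 points in 11 (7.33%, against 6.65% of the others), and its largest value was 31.4 points. Epididymis was nearer to testis than ductus deferens was in 98 loci and ductus deferens nearer in 44, with 8 ties. This is 65.3% of the loci, against 52.6% of the 4744 other loci with a score above 0, and it was 94 loci without the epididymis of bird 12. HORMAD1, given above, had a higher mean CPM in epididymis than in ductus deferens (9.16 ± 3.59 and 3.95 ± 1.42, SD, n = 6 each). This difference was not called, with a log2 fold change of 1.14 ± 0.36 (SE; edgeR adjusted p = 0.0601). It was the only 1 of 13 germ cell markers tied to a locus, and the part of germ cell RNA in the nearness was not tested.

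Transcript usage between the ducts was tested among assembled transcripts only, with edgeR's test of differential usage summarised per gene by Simes' method. It covered the 77 loci that kept at least 2 assembled transcripts after the filter on low counts. Ensembl transcripts were left out, and with those of a locus added as 1 transcript 115 loci were tested and 0 called (10 of 7508 genes tested). In the main test none of the 77 was called at an adjusted p under 0.01 (0.162% of all genes tested and 0.137% of the scored loci tested), and 4 had an unadjusted p under 0.05. With limma on the log-odds of the shares 0 were also called (12 of 4927 genes tested), with 7 under 0.05. The unadjusted p are not set beside those of all genes tested, and nothing is read from them. The smallest adjusted p was 0.218, at MSTRG.22320, with lead shares of 6.20% in epididymis and 0.269% in ductus deferens. MSTRG.47402, MSTRG.15619 and MSTRG.2298 followed with adjusted p of 0.458, 0.754 and 0.784, and MSTRG.13114 and MSTRG.15472 with 1 each.

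These loci show how wide the birds lay. At MSTRG.47402 the lead share was 0% to 98.5% in epididymis (median 87.9%) and 96.8% to 99.4% in ductus deferens (median 98.0%), against 5.13% to 11.8% in testis. Without the epididymis of bird 12, 2 of 87 loci tested were called (1.91% of all genes tested and 1.29% of the scored loci tested). MSTRG.2298 had an adjusted p of 6.36e-05 (edgeR). There MSTRG.2298.1 took 37.0% of the counts in epididymis and 98.5% in ductus deferens, and MSTRG.2298.3 took 39.7% and 0%. The filter on low counts was applied anew in this setting, and 3 assembled transcripts of MSTRG.2298 were tested, against 2 in the main test. The call thus differs from the main test in the transcripts as well as in the libraries. MSTRG.26479 had an adjusted p of 9.45e-05 (edgeR) without the epididymis of bird 12, and its lead had 1.06% and 1.08% of the locus counts. Most counts of this locus lay on ENSMGAT00000003406, with 83.4% and 96.1%, which the test left out as an Ensembl transcript. MSTRG.26479.1 had 11.9% and 2.85%. The call thus compares only 3 assembled transcripts, which held the smaller part of the counts, and which of them differed was not examined. A shift between the Ensembl and the assembled transcripts was not tested in this setting. On simulated counts with the dispersions of the data the usage test called 0 of 86 changes of 4-fold and 0 of 44 of 64-fold. The test thus had little power at this spread, and no likeness of the 2 ducts follows from the few calls.

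The difference of the total between tissues did not set the score, but the rule used the total as the denominator of each share and left out loci under 6000 counts in a tissue. The scored loci passed the same minimum and are given beside the 150. The total was tested with edgeR's quasi-likelihood test on the gene counts of the 12 libraries of a comparison, where a call needs an adjusted p below 0.01 together with a change of more than 1 on the log2 scale. Most of the 150 loci were not called. On simulated counts the test missed most changes of 4-fold, with 9 of 90 called against epididymis and 18 of 92 against ductus deferens. The changed genes were drawn from all genes that passed the filter on low counts, without the minimum of 6000. These rates are thus not those of the 150 loci, for which the power was not tested. In the testis/epididymis comparison 21 were higher and 19 lower in testis, which is 26.7% of them (27.1% of the scored loci and 35.9% of all genes tested were called). In the testis/ductus deferens comparison 33 were higher and 26 lower in testis, which is 39.3% (35.5% of the scored loci and 45.3% of all genes). The share called was near that of the scored loci. These comparisons share the testis libraries.

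The calls are given here by direction, and the difference between the 150 loci and the scored loci was not tested. In testis/epididymis 14.0% of the 150 loci were called higher and 12.7% lower in testis, against 8.73% and 18.4% of the scored loci (23% and 12.9% of all genes). In testis/ductus deferens 22.0% were called higher and 17.3% lower in testis, against 12.1% and 23.4% (30.4% and 14.9% of all genes). The median log2 fold changes of the 150 loci were 0.20 and 0.17, against -0.32 and -0.28 in the other scored loci and 0.30 and 0.59 over all genes. Other scaling moved all of these upward, with the median of all genes shifted by 0.37 and 0.22 under DESeq2's size factors, where 41 of the 150 loci were higher and 17 lower against epididymis and 39 higher and 22 lower against ductus deferens (37.4% and 45.7% of all genes tested were called). Of the scored loci 861 were then higher and 746 lower of 6118 against epididymis, and 976 higher and 1145 lower of 6121 against ductus deferens. By library size alone 27 of the 150 loci were higher and 15 lower against epididymis and 43 and 21 against ductus deferens (33.8% and 44.7% of all genes tested). Of the scored loci 687 were then higher and 710 lower against epididymis and 1074 higher and 965 lower against ductus deferens. The balance of the scored loci thus also turned with the scaling, against epididymis under DESeq2's factors and against ductus deferens by library size.

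Loci with a duct lead had median log2 fold changes of 0.38 against epididymis and 0.56 against ductus deferens, and loci with a testis lead of -0.01 and -0.10. Against ductus deferens 20 of the 82 loci with a duct lead were higher and 7 lower in testis, and 13 of the 68 with a testis lead were higher and 19 lower. Against epididymis the numbers were 9 and 9, and 12 and 10. The difference between both kinds of loci was not tested.

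**Figure D5:**
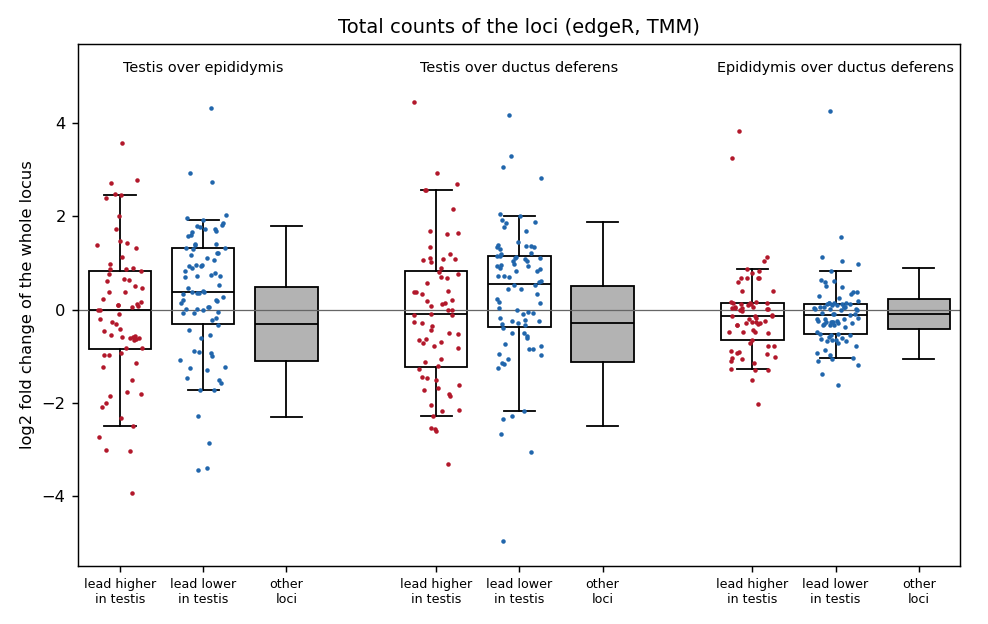
Log2 fold change of the total locus counts (y axis, edgeR with TMM) in the 3 comparisons for loci with the lead higher in testis (red), loci with the lead lower in testis (blue) and the other scored loci (grey). Points are loci, boxes give medians and quartiles, and whiskers the 5th and 95th percentiles. Of the 150 loci 83 lie within 1 log2 unit of 0 in testis/epididymis, 76 in testis/ductus deferens and 126 in epididymis/ductus deferens, and MSTRG.42927 and MSTRG.52304 are among the farthest at 4.32 and -4.96.

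Among the 12 highest scores MSTRG.42927 rose most in testis. Its total was 134 to 675 CPM in testis (median 246), 10.6 to 19.99 CPM in epididymis (median 14.7) and 7.11 to 21.6 CPM in ductus deferens (median 19.3), and the log2 fold changes were 4.32 ± 0.35 and 4.17 ± 0.39 (SE; edgeR adjusted p = 9.81e-07 and 1.77e-06). MSTRG.46803 had 203 to 439 CPM in testis, 7.003 to 120.4 CPM in epididymis and 23.5 to 48.7 CPM in ductus deferens. It rose in testis by 1.82 ± 0.47 and 3.05 ± 0.24 (edgeR adjusted p = 0.00486 and 3.35e-07). MSTRG.33886, with 75.8 to 133 CPM in testis, 1.91 to 43.5 CPM in epididymis and 12.9 to 34.8 CPM in ductus deferens, rose by 1.76 ± 0.50 and 2.00 ± 0.27 (edgeR adjusted p = 0.00925 and 2.77e-05). With the bird as a block the call against epididymis was lost in both loci, at adjusted p of 0.0103 and 0.0248 (edgeR). It was also lost at MSTRG.46803 without bird 2, 11, 14 or 16 (log2 fold changes of 1.78 to 1.99) and at MSTRG.33886 without bird 2, 11, 14, 15 or 16 (1.71 to 2.02).

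MSTRG.52304 fell in testis. It had 13.2 to 44.6 CPM in testis, 122 to 857 CPM in epididymis and 492 to 2369 CPM in ductus deferens. The testes did not overlap with either duct, while the ducts overlapped with each other. The log2 fold changes in testis were -3.41 ± 0.51 and -4.96 ± 0.48 (edgeR adjusted p = 0.000118 and 2.06e-06). MSTRG.37193 fell against ductus deferens, by -2.35 ± 0.36 (edgeR adjusted p = 7.53e-05), and had -1.48 ± 0.53 against epididymis (edgeR adjusted p = 0.0321), which became a call at -1.66 without the epididymis of bird 12. MSTRG.8494 was called higher than in ductus deferens at 1.03 ± 0.25 (edgeR adjusted p = 0.00287), and the call was lost without birds 2, 11 or 16, with log2 fold changes of 0.88, 0.93 and 1.08. Against epididymis it had 1.21 ± 0.45 (edgeR adjusted p = 0.0364), and a call at 1.09 without bird 12.

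The other 6 of the 12 were called in neither testis comparison. MSTRG.19686 had 13.8 to 58.7 CPM in testis, 12.2 to 68.2 CPM in epididymis and 30.2 to 49.7 CPM in ductus deferens, with log2 fold changes of 0.23 ± 0.41 and 0.18 ± 0.32 (edgeR adjusted p = 0.672 and 0.64). MSTRG.11727, an abundant locus, had 546 to 2045 CPM in testis, 786 to 1616 CPM in epididymis and 1463 to 3517 CPM in ductus deferens, with 0.13 ± 0.28 and -0.84 ± 0.31 (edgeR adjusted p = 0.726 and 0.031). MSTRG.18496, MSTRG.12983, MSTRG.22320 and MSTRG.19307 had log2 fold changes from -1.24 to 0.95, the lowest at MSTRG.19307 against epididymis (edgeR adjusted p = 0.0243), which became a call at -1.44 without the epididymis of bird 12 and also with a limit of 0.05 on the adjusted p. That the totals of these loci were not called does not show that they were equal.

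ASS1 was low in testis relative to epididymis. It had 8.21 to 21.3 CPM in testis (median 11.8), 100.6 to 338 CPM in epididymis (median 194) and 3.20 to 28.0 CPM in ductus deferens (median 10.8). Its log2 fold change was -3.94 ± 0.35 against epididymis and -0.01 ± 0.50 against ductus deferens (edgeR adjusted p = 2.11e-06 and 0.992), and the epididymis exceeded the ductus deferens by 3.84 ± 0.56 (edgeR adjusted p = 0.000486). The ranges of ASS1 in testis and ductus deferens overlapped, and those of epididymis and ductus deferens did not.

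Between the ducts 3 of the 150 loci were higher and 5 lower in epididymis, which is 5.33% (3.81% of the scored loci and 5.34% of all genes tested were called). By direction these are 2.00% higher and 3.33% lower, against 1.98% and 1.83% of the scored loci (4.22% and 1.12% of all genes). The 3 higher loci, ASS1 among them, had log2 fold changes of 3.25 to 4.27, and the 5 lower ones of -1.51 to -1.06. MSTRG.22320, the only one of the 12 highest scores called here, had 117 to 459 CPM in epididymis and 395 to 661 CPM in ductus deferens, which differ by -1.30 ± 0.24 on the log2 scale (edgeR adjusted p = 0.00308). This call was lost without bird 2, 15 or 16 (-1.34, -1.26 and -1.32). With the bird as a block 4 loci were called, 3 higher and 1 lower, and MSTRG.22320 was not among them (edgeR adjusted p = 0.0142). Without the epididymis of bird 12, 14 loci were called, 5 higher and 9 lower (10.3% of all genes tested and 7.14% of the scored loci were called).

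Of 181 genes in lists of splicing regulators, polyadenylation factors, germ cell transcription factors, cytoskeletal genes with known tissue isoforms and cell type markers, 5 could be tied to a locus by symbol, and none of these was among the 150 loci. Only SPTBN1 and KRT19 of them were scored. SPTBN1, a spectrin of the membrane skeleton, scored 44.6 points, with 53.0% of its counts on MSTRG.19745.1 in testis, 97.6% in epididymis and 98.7% in ductus deferens. Its total was lower in testis by log2 fold changes of -2.68 ± 0.45 and -2.54 ± 0.34 (edgeR adjusted p = 0.000254 and 2.59e-05). KRT19 scored 0. RFX2, a transcription factor of spermatids and ciliated cells, had 28.4 to 74.8 CPM in testis, 27.2 to 82.04 CPM in epididymis and 1.61 to 16.4 CPM in ductus deferens.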

How the data were processed

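Before deposit, reads were cut to 90 nt by the authors (Trimmomatic 0.38), aligned with STAR 2.4 and assembled with StringTie 1.3.3, merging the samples into 1 annotation. The deposited values are unnormalized whole-number counts of genes and of transcripts. The counting tool is not given in the sources used here, and reads shared by transcripts of a locus or by overlapping loci make their counts uncertain. Counts of the 150 loci had medians of 1090.5 to 7107 per library, and intervals from them cover counting error only.

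Tissues and birds were taken from the labels. Transcripts named MSTRG.n.k were assigned to locus MSTRG.n. Ensembl transcripts were tied to a locus where the counts of the locus equalled the sum of its transcripts in all 18 libraries, which succeeded in 5216 of 5385 loci and in 124 of 126 of the 150 loci that needed it. Symbols came from supplementary lists. In 24 of 24 loci checked, the listed transcripts with counts were all among those tied, and further tied transcripts were allowed. CPM were computed with TMM factors over 18 libraries. R 4.3.3 with edgeR 4.0.16 (TMM, filterByExpr, robust quasi-likelihood fit, Benjamini-Hochberg adjustment over all genes tested), limma 3.58.1 and DESeq2 1.42.0, and Python 3.11.15 with pandas 2.3.3, were used. The edgeR tests were run on simulated counts with known changes and the dispersions of the data. The changed genes were drawn at random from all genes that passed the filter on low counts, not from the 150 loci. The gene test called 9 of 90 changes of 4-fold in testis/epididymis, 18 of 92 in testis/ductus deferens and 16 of 89 between the ducts. At 16-fold it called 49 of 86, 60 of 90 and 61 of 88. The usage test called 0 of 86 changes of 4-fold, 0 of 42 of 16-fold and 0 of 44 of 64-fold. At a dispersion of 0.1 it called 92 of 100, 50 of 50 and 50 of 50. The SE is the log2 fold change divided by the root of F. Results were recomputed with other scalings, filters, tests and thresholds, and without each bird. The columns of a bird come from 1 animal, so its tissues are paired. The deviations of the same bird correlated by means of 0.0233, 0.0166 and 0.0379 in the 3 comparisons over 6762 genes, and other birds by 0.00116, 0.00258 and 0.00325. Single birds ran from -0.12 to 0.169, from -0.19 to 0.337 and from -0.216 to 0.253, so the means hide birds that deviated in opposite ways. The fit without a block is the main one.

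The loci and lists were chosen with earlier results of these data known. Named loci are those with the 12 highest scores, loci with a symbol, 3 on either side of the limit of the list and the 6 with the smallest p of usage between the ducts. MSTRG.26479 was named after its values were seen. Sequences and coordinates were not used here. The single values of 1 locus are not reported here.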

Additional observations from a re-analysis of the deposited data

Results flagged for a closer look

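Lead shares and total levels of the 12 highest-scoring loci and of ASS1 were examined for a bird far from the others of its tissue, by the gap to its neighbour relative to the range of the 6 birds (Dixon's test). Of 78 groups 22 held such a bird, 12 for shares and 10 for levels, and chance gives about 1 in 20 for values with a normal spread. This rate does not hold for the shares, of which many lie at or near 0% or 100%, so that even a small step stands apart. Of the 22, 6 were the epididymis of bird 12.

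The epididymis of bird 12 had 1.37 CPM at MSTRG.8494 (others 12.1 to 18.1 CPM), 7 CPM at MSTRG.46803 (others 83.5 to 120.4 CPM), 1.91 CPM at MSTRG.33886 (others 31.1 to 43.5 CPM) and 202 CPM at MSTRG.12983 (others 30.4 to 68.7 CPM). Its lead share was 15.4% at MSTRG.46803 (others 83.05% to 98.5%) and 0.714% at MSTRG.22320 (others 5.75% to 8.23%).

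Bird 11 stood apart in testis, with 100.4 CPM at MSTRG.12983 (others 12.6 to 36.2 CPM), 1032 CPM at MSTRG.22320 (others 157 to 436 CPM), 13.2 CPM at MSTRG.52304 (others 36.1 to 44.6 CPM) and 675 CPM at MSTRG.42927 (others 134 to 301 CPM). In its epididymis MSTRG.22320 had 459 CPM (others 117 to 244 CPM). The testis of bird 15 had 24 CPM at MSTRG.37193 (others 8.57 to 14.3 CPM).

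Lead shares that left a tight group were 97.9% at MSTRG.8494 in the epididymis of bird 11, 94.2% at MSTRG.37193 in that of bird 14, 82.5% at MSTRG.33886 in that of bird 16, 99.8% at MSTRG.42927 in that of bird 11 and 2.43% at ASS1 in that of bird 15. In ductus deferens they were 99% at MSTRG.19307 and 78.9% at MSTRG.46803 in bird 15, 71% at MSTRG.33886 in bird 12 and 99.9% at MSTRG.42927 in bird 16. In testis it was 56.8% at MSTRG.19686 in bird 14.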

How the results depend on the processing

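Of the 150 loci 119 stayed with a minimum of 3000 counts, 104 with 12000 and 93 when shares were taken of the assembled transcripts alone. With each bird left out 112 to 121 stayed, and 141 without the epididymis of bird 12. The number of loci without overlap was 73 to 85 with a bird left out. Fewer birds can only keep or raise this number. The share of all scored loci is not given for these settings, so nothing is read from it. Calls of totals in testis/epididymis were 62 at an adjusted p under 0.05 and 31 to 58 without a bird, in testis/ductus deferens 49 to 64, and in epididymis/ductus deferens 2 to 15, against 8 with all birds. The lowest, 2, came without bird 2 or bird 15, with 3 without bird 16 and 5 without bird 14, and the highest, 15, without bird 12. There were 14 calls without its epididymis alone. The calls over all genes tested moved too. In testis/epididymis 8631 genes were higher and 5268 lower of 28489 at an adjusted p under 0.05. They were 5410 and 2631 of 28788 without bird 16, and 7929 and 4678 of 29058 without bird 12. In testis/ductus deferens they were 7576 and 3256 of 27786 without bird 16, and 8502 and 4531 of 28620 without bird 11. Between the ducts they were 601 and 72 of 22725 without bird 2, and 1746 and 624 of 23659 without bird 12. The bird as a block gave 31, 56 and 4 calls and 0 usage calls. Over all genes tested it gave 3998 higher and 2264 lower of 28489, 6702 and 3566 of 27550, and 487 and 139 of 22695. Usage was then called in 1 of 4927 genes tested. Usage calls were 0 to 2 without a bird, and 2 without bird 12 or without its epididymis alone.

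Fold changes that changed sign were all uncalled. Against ductus deferens MSTRG.19307 had 0.31 by library size, 0.11 with DESeq2's factors or DESeq2, 0.07 with the block, 0.06 in limma and -0.19 to 0.17 without a bird. ASS1 (MSTRG.19198) had 0.28, 0.23, 0.37 and 0.31 there and -0.25 to 0.41 without a bird. MSTRG.12983 against epididymis had -1.57 to 0.17 without a bird, the highest without bird 12. Between the ducts MSTRG.18496 had 0.03 and MSTRG.19686 0.06 by library size, MSTRG.19686 -0.35 to 0.01 without a bird, MSTRG.33886 had -0.05 with the block, -0.16 in limma and -0.18 without bird 14, and MSTRG.12983 had -0.01 with the block, -0.56 (without bird 12) to 0.76 without a bird and -0.47 without its epididymis. The cause was not tested. Other changes of single loci crossed the threshold with the same sign, 23 losing and 18 gaining the call.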
